A study of Homo sapiens with 8 samples.

Results

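ST14, the gene of the membrane serine protease matriptase, was examined in LP-1 myeloma cells together with 6 genes that act on it or next to it. These were SPINT1 and SPINT2, which encode the Kunitz-type inhibitors of matriptase, PRSS8, which encodes the protease prostasin, HGF, which encodes hepatocyte growth factor, HGFAC, which encodes an activator of that factor, and MET, which encodes its receptor. The 7 genes were found by symbol among the 18564 genes of the expression table. ST14 was chosen by its level, since it was lower in all libraries of the resistant line, and its difference between the lines is therefore given as a description with no test. The other 6 were named for their roles.

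Matriptase is made as an inactive membrane protein, mostly in epithelia, and becomes active by cleaving itself. HAI-1 (SPINT1) and HAI-2 (SPINT2) block the active enzyme and help the precursor reach the cell surface, and prostasin and matriptase act on each other. Matriptase can convert the inactive precursor of hepatocyte growth factor into the form that activates MET, and myeloma cells are a known source of that factor, which syndecan-1 holds at their surface.

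The cells were LP-1, an established line of malignant human plasma cells. The wild-type (WT) line was compared with a bortezomib (BTZ)-resistant derivative (BR), which had been selected by culture with the proteasome inhibitor for 2 months, and each line received for 24 h either vehicle (DMSO) or SI-2 at 25 nM, a drug-like compound that inhibits the coactivator SRC-3. RNA was sequenced in 2 libraries for each of the 4 conditions, 8 libraries in all, so that BR against WT compared 4 libraries with 4 over both treatments. Neither the labels nor the methods say whether the BR line was 1 clone or when its libraries were made relative to the last BTZ exposure. Selection with BTZ and descent of the line cannot be told apart. The study describes its BR libraries with and without SI-2 as biologically independent experiments, the labels do not say whether the libraries of a condition came from separate cultures, and the p-values measure only the spread between libraries. Library totals ran from 17997771 to 18570027 estimated counts. Values per library are given as estimated counts or as CPM, counts scaled to the size of the library with a TMM correction for its composition, and levels of different genes are compared as FPKM, which also divides by transcript length.

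The libraries expressed the plasma cell program that the label implies. JCHAIN, the immunoglobulin joining chain, had a mean of 3354 FPKM over the 8 libraries, XBP1, a regulator of secretory cells, 497 FPKM, and MZB1, a chaperone of the endoplasmic reticulum, 444 FPKM. Of 12 plasma cell markers 11 were in the table and 10 were tested, and SLAMF7, a surface receptor, and FCRL5, an Fc receptor-like protein, were low, with 15 to 28 and 0 to 5 counts. Their log2 fold changes between the lines had a median of -0.19, with 7 of the 10 below 0. None of the 10 was called by edgeR, DESeq2 or limma, which called 0.362%, 3.01% and 0.414% of all genes. At an unadjusted p under 0.05 there were 2 with edgeR, 3 with DESeq2 and 4 with limma, against 1942, 2036 and 1981 of the 13520 genes tested. The BR SI-2 library of replicate 2 stood apart from the other 7. It held 204 genes with at least 10 counts there and at most 3 in every other library, against 0 to 2 such genes in each of the others, and these 204 genes took 7624 counts, or 0.0419% of the library. Several results that rest on this library are given with and without it.

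ST14 was lower in every BR library. Its estimated counts were 178 and 253 in WT vehicle, 137 and 289 with SI-2, then 71 and 53 in BR vehicle, and 49 and 57 in BR SI-2. The lines did not overlap, and the lowest WT library was 1.88 times the highest BR library in CPM. The mean was 11.9 ± 3.83 CPM in WT and 3.12 ± 0.606 CPM in BR (SD, n = 4 libraries, both treatments), a ratio of 3.83. The spread was wider in WT, from 7.53 to 16.1 CPM, than in BR, from 2.69 to 4.01 CPM. On the log2 scale BR differed from WT by -1.93 (SE 0.25) over both treatments, -1.82 (SE 0.38) within vehicle and -2.06 (SE 0.38) within SI-2. Over both treatments its fold change ranked 9 from the lowest among the 13520 genes tested. In the fit over 4 conditions (13896 genes) it ranked 24 within vehicle and 22 within SI-2. These ranks are of the difference that ST14 was chosen by. In bulk RNA, fewer cells that express a gene and less of its RNA in each cell cannot be told apart. All ST14 reads were assigned to the only transcript model with counts, NM_021978.3, so no division between isoforms enters these values.

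**Figure D1:**
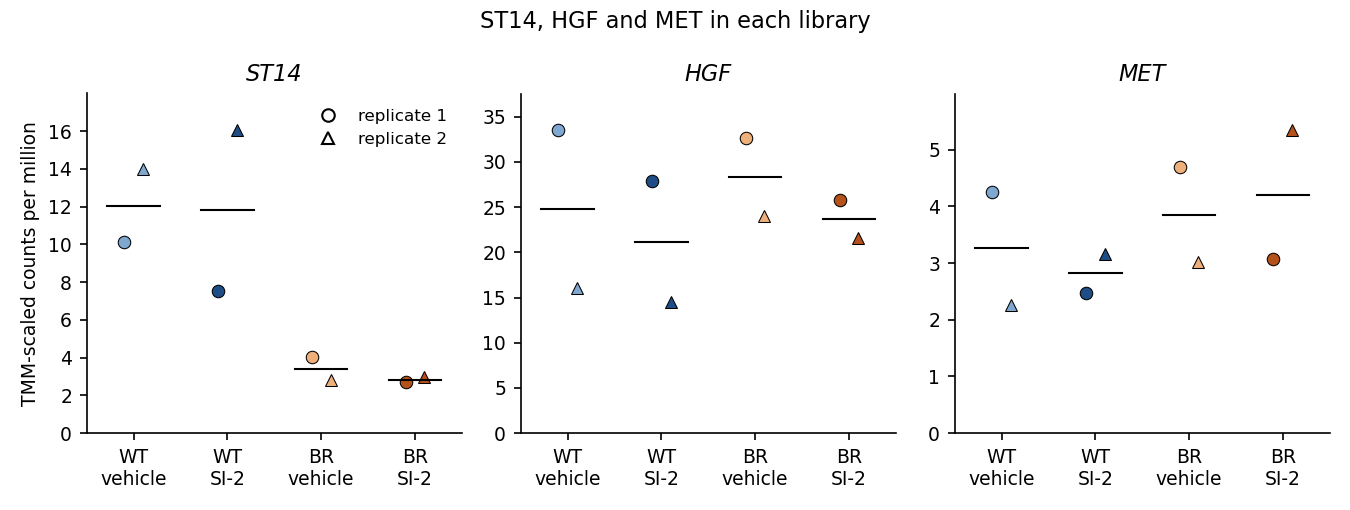
CPM after TMM scaling (vertical axes, each from 0) of ST14, HGF and MET in the 4 conditions, with a circle for replicate 1, a triangle for replicate 2 and a bar at the mean of both. The 4 BR libraries lie between 2.69 and 4.01 for ST14, below all 4 WT libraries (7.53 to 16.1), while the lines overlap for HGF and MET.

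Per unit of length, ST14 was near the middle of all 18564 genes of the table in WT cells, a base that includes genes too low to be tested. Its mean of 3.55 ± 1.13 FPKM in WT (SD, n = 4) was above 50.8% of the genes in the table, and its mean of 0.95 ± 0.159 FPKM in BR was above 39.7%. The order of the members by level in WT was HGF (4.94 ± 2.29 FPKM), ST14 and MET (0.50 ± 0.121 FPKM), with HGF and ST14 overlapping in their libraries. In BR the order was HGF (5.39 ± 0.656 FPKM), ST14 and MET (0.66 ± 0.222 FPKM), with ST14 and MET overlapping through the BR SI-2 library of replicate 2, where both had 0.94 FPKM. Without that library ST14 had 0.80 to 1.17 FPKM and MET 0.47 to 0.73 FPKM in BR. The ratio of HGF to ST14 in FPKM was 2.48 and 0.751 in WT vehicle, 2.81 and 0.595 with SI-2, then 5.34 and 5.89 in BR vehicle, and 6.79 and 4.98 in BR SI-2. All BR ratios were above all WT ratios, in a comparison that contains the level ST14 was chosen by. SPINT1, SPINT2, PRSS8 and HGFAC had means of at most 0.318 FPKM in either line, and none was above 0.10 FPKM in a library other than BR SI-2 replicate 2.

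ST14 did not pass the test for SI-2 in either line. In BR the log2 fold change of SI-2 against vehicle was -0.27 (SE 0.39), in WT -0.03 (SE 0.35), and the difference between these effects was -0.24 (SE 0.53), with unadjusted p of 0.513, 0.929 and 0.665 in the quasi-likelihood test of edgeR and none past the adjusted threshold. With such standard errors a change of this size was not detectable. Across the table the test called 0 genes (0%) in SI-2 in BR, 0 (0%) in SI-2 in WT and 0 (0%) in the difference of these effects, among 13896 genes. At an unadjusted p under 0.05 there were 167, 74 and 74 genes with edgeR, 102, 32 and 33 with DESeq2, and 174, 99 and 79 with limma. At an adjusted p under 0.05 DESeq2 called 1 gene in each. These comparisons share libraries and are given side by side only.

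The inhibitor genes were at or near 0 in 7 of the 8 libraries. SPINT1 had 1 and 0 counts in WT vehicle, 0 and 0 with SI-2, then 0 and 0 in BR vehicle and 0 and 55 in BR SI-2. SPINT2 had 0 and 0 in WT vehicle, 0 and 1 with SI-2, then 0 and 0 in BR vehicle and 0 and 22 in BR SI-2. For each gene, 7 libraries together held 1 count, and all others came from the BR SI-2 library of replicate 2. A count of 0 allows up to 3 counts, which is 0.156 to 0.171 CPM in these libraries, and such limits cover counting error only. Prostasin, the gene PRSS8, had 0 and 1, 0 and 2, 0 and 3, and 1 and 17 counts in the same order, and the 17 were again in that library. All 3 genes failed the filter on low counts and have no test, and no fold change is given for them.

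In that same library, epithelial and stromal markers had more counts than in any other. The 10 epithelial markers summed to 404 counts there and to between 102 and 137 in the other 7 libraries. The most abundant of them overall was KRT8, a keratin, with 41 to 81 counts. KRT19, another keratin, had 35 counts against at most 1 elsewhere, and EPCAM, an epithelial adhesion molecule, had 26 against at most 1. KRT14, the keratin of basal epithelium, had 0 counts in every library but 1, and KRT5 had 3.76 counts there. CDH1, which encodes E-cadherin, had 89 counts there against 18 to 29 elsewhere, and its log2 fold change of BR over WT was 0.74 (SE 0.45) with the library and -0.01 (SE 0.25) without it. CLDN4, a tight junction claudin, had 80.3 counts there against 4 to 15 elsewhere, and its log2 fold change was 1.88 (SE 0.78) with the library and 0.57 (SE 0.50) without it. The 9 stromal markers, collagens and other fibroblast genes, summed to 2596 counts there and to between 8 and 17.1 elsewhere. COL1A1, a fibrillar collagen and the most abundant of them, had 1032 counts against 2 to 6. COL3A1 had 998, DCN, the proteoglycan decorin, had 143, and POSTN had 1. Myeloid markers summed to 105 there and 52.6 to 91.6 elsewhere, T cell markers to 181 there and 132 to 214 elsewhere, and plasma cell markers to 141711 there and 122377 to 168756 elsewhere. The most abundant myeloid marker was LYZ, lysozyme, with 44 to 89 counts, and the most abundant T cell marker was ZAP70, a kinase, with 115 to 199 counts. The part that these other genes have in the SPINT1, SPINT2 and PRSS8 counts was not tested.

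**Figure D2:**
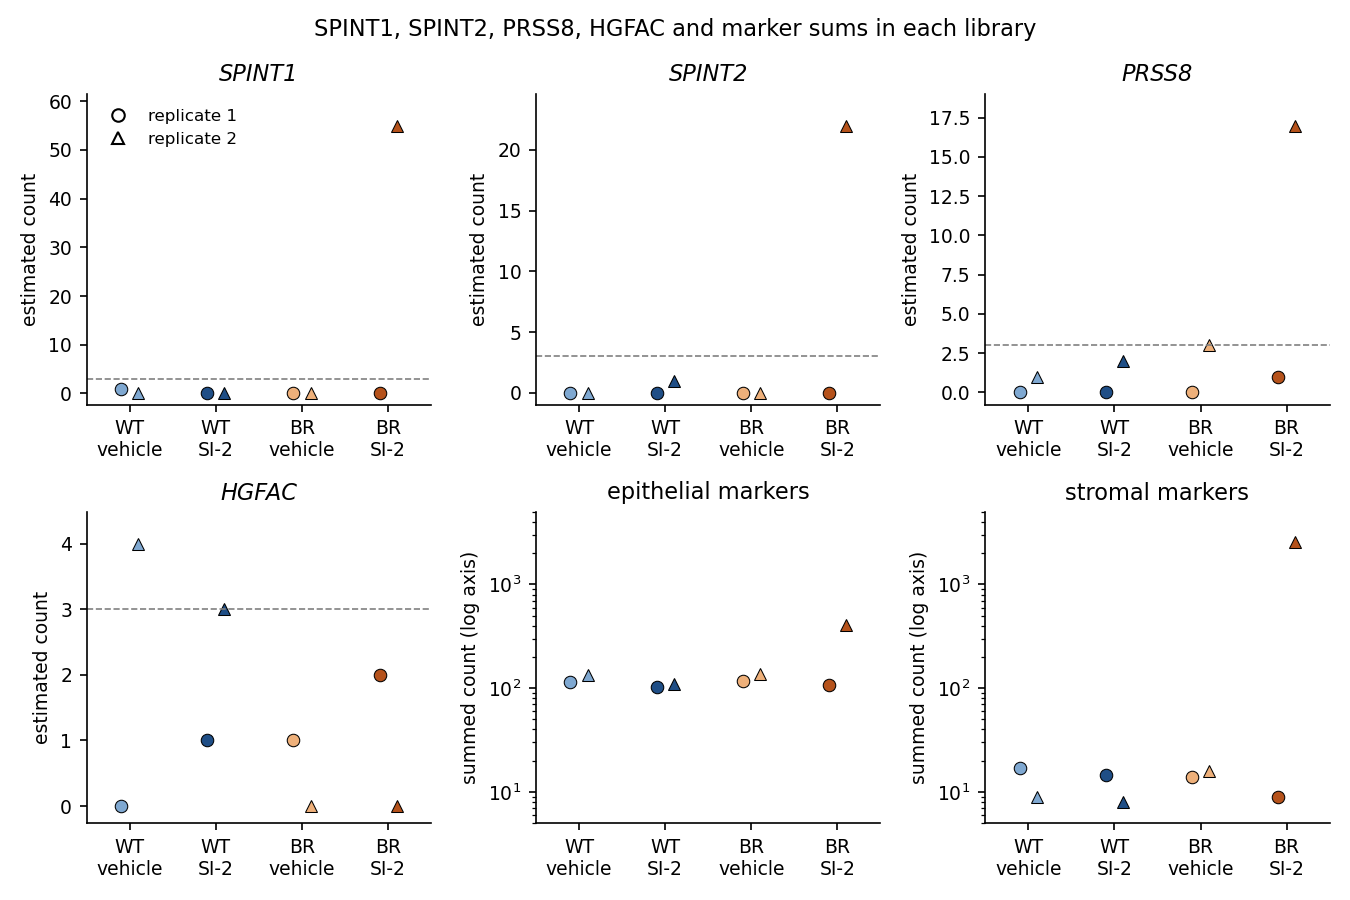
Estimated counts per library of SPINT1, SPINT2, PRSS8 and HGFAC (linear axes, dashed line at 3 counts, the limit that a count of 0 allows) and summed counts of 10 epithelial and 9 stromal markers (log axes), with circles for replicate 1 and triangles for replicate 2. In the BR SI-2 library of replicate 2, SPINT1 has 55 counts and the stromal markers sum to 2596, and HGFAC does not share this pattern.

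HGF was expressed in both lines and did not pass the test between them. Its counts were 590 and 290 in WT vehicle, 508 and 260 with SI-2, then 578 and 452 in BR vehicle, and 471 and 415 in BR SI-2. The groups overlapped, at 23.0 ± 9.25 CPM in WT and 26.0 ± 4.76 CPM in BR (SD, n = 4). The log2 fold change was 0.18 (SE 0.25), with adjusted p = 0.771 in edgeR's quasi-likelihood test, and it ran from 0.01 (without WT SI-2 replicate 2) to 0.42 (without WT vehicle replicate 1) when a library was left out. Within vehicle it was 0.19 (SE 0.38) and within SI-2 0.16 (SE 0.38). Replicate 1 had more HGF than replicate 2 in all 4 conditions, by ratios of 2.09, 1.93, 1.36 and 1.20 in CPM in the order above. In WT, ST14 went the other way, with more reads in replicate 2 of both treatments. SI-2 against vehicle gave -0.26 (SE 0.38) in BR and -0.23 (SE 0.39) in WT, with a difference of -0.03 (SE 0.54) and unadjusted p of 0.520, 0.572 and 0.956 in edgeR's test. Reads of HGF were divided among 9 transcript models, of which 8 had 0 counts in some library. XM_006715956.2 had 273 counts in WT vehicle replicate 1 and 0 in replicate 2, and NM_000601.5 had 0.01 and 72.7, so no isoform is compared here.

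MET, the receptor of HGF, was low in both lines. It had 74.9 and 41.5 counts in WT vehicle, 44.7 and 57.5 with SI-2, then 82.8 and 57.2 in BR vehicle, and 56.3 and 103 in BR SI-2. The lines overlapped, at 3.04 ± 0.900 CPM in WT and 4.03 ± 1.17 CPM in BR (SD, n = 4). The log2 fold change was 0.41 (SE 0.26), with adjusted p = 0.500 in edgeR's test. The highest value was in the BR SI-2 library of replicate 2, and without it the fold change was 0.24. Leaving out each library in turn gave 0.24 to 0.62, the highest without WT vehicle replicate 1. SI-2 against vehicle gave 0.13 (SE 0.40) in BR, -0.21 (SE 0.41) in WT and a difference of 0.34 (SE 0.57). Their unadjusted p was 0.749, 0.622 and 0.565 in edgeR's test. Without BR SI-2 replicate 2 the BR value became -0.33 and the difference -0.12. Leaving out BR vehicle replicate 2 turned the BR value to -0.16. Leaving out WT vehicle replicate 1 turned the WT value to 0.31 and the difference to -0.19. HGFAC, the serum protease that activates HGF, had 0 and 4, 1 and 3, 1 and 0, and 2 and 0 counts in the same order, at or near the limit of 3 counts in every library, and it was not tested. Of the 7 genes, ST14, HGF and MET were thus the 3 that passed the filter.

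**Figure D3:**
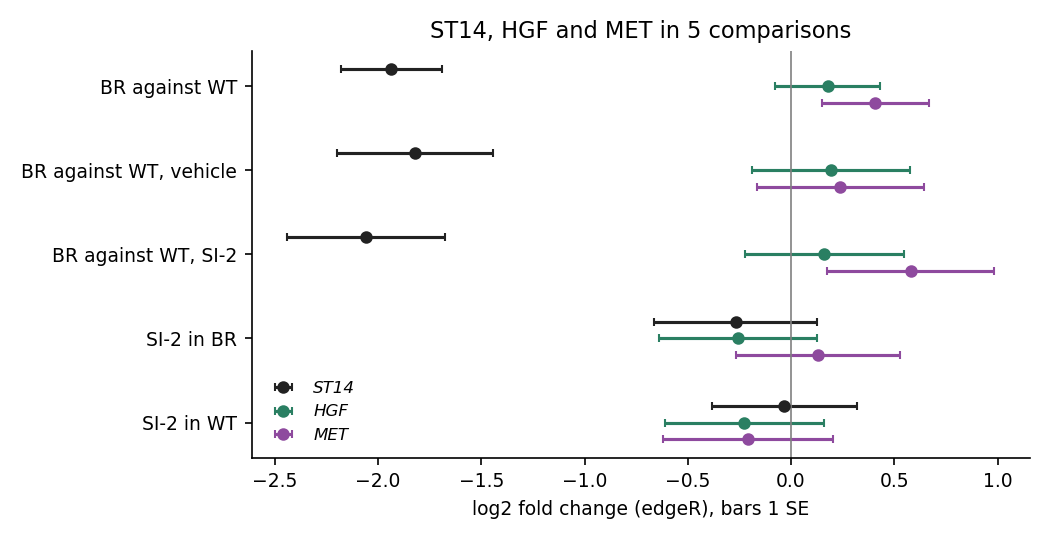
Log2 fold changes (horizontal axis, bars 1 SE) of ST14, HGF and MET in edgeR fits, for BR against WT over both treatments and within each treatment and for SI-2 against vehicle in each line. ST14 lies between -2.06 and -1.82 in the 3 comparisons of the lines, which chose it, and the other values lie between -0.27 and 0.58. The value of 0.58 is MET within SI-2, which includes the BR SI-2 library of replicate 2 and is given only with it.

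Sequence before the transcription start was held for 4 of the 7 genes (SPINT1, HGF, HGFAC and MET) in the RefSeq promoter table of GRCh38.p14. For each gene the first start listed was used, and it was not matched to the transcript models with counts. The 250 bases before that start of SPINT1, HGF and MET are shown to set the near-absent inhibitor beside the ligand and the receptor that were expressed. They are printed 5′ to 3′ on the strand of the gene, with each CG dinucleotide, which reads the same on both strands, in capitals. SPINT1 is at chr15:40843798-40844047 (plus strand), HGF at chr7:81770048-81770297 (minus strand) and MET at chr7:116671946-116672195 (plus strand).
SPINT1: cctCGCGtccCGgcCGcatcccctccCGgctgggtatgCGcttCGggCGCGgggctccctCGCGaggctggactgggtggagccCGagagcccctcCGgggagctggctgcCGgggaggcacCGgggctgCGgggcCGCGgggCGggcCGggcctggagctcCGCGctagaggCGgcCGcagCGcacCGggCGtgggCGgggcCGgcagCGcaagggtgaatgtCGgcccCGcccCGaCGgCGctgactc
HGF: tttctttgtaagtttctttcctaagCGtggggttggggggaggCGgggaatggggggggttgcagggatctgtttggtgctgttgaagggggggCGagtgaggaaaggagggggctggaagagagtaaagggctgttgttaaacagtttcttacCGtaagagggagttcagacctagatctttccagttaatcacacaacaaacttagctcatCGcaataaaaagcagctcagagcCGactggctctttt
MET: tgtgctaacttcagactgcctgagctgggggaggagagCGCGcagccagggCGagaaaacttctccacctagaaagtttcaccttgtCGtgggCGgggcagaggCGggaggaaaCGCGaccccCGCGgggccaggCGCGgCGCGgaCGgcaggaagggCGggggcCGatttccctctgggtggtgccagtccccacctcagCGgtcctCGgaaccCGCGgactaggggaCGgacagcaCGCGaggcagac

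SPINT1 had 35 CG and 80.4% G or C in these 250 bases, and 5.80% of 35116 promoters of that length had at least as many CG. MET had 24 CG (23.7% of promoters had as many or more), HGFAC 7 (58.9%) and HGF 6 (61.9%).  These numbers describe the sequence only, since methylation was not measured.

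Of the genes around the matriptase pathway, 1 passed the test between the lines. The genes came from 5 lists: other membrane serine proteases, proteases that activate HGF, serine protease inhibitors, matriptase substrates and MET signalling genes. Regulators of epithelial identity were counted apart from these. Of 92 genes 87 were in the table and 54 were tested, of which 1 rose and 0 fell in edgeR's test, against 49 of 13520 genes in the whole table (0.362%), 15 higher (0.111%) and 34 lower (0.251%). At an unadjusted p under 0.05 there were 9 of the 54 and 1942 of the 13520 genes with edgeR, and 2036 with DESeq2 and 1981 with limma in the whole table. At an adjusted p under 0.05 DESeq2 called 3 of the 54, against 399 of the 13248 genes to which it gave an adjusted p (3.01%), and limma called 1, against 56 of 13520 (0.414%). The median log2 fold change was 0.0058 over the 54 and 0.0042 over all genes tested. The BR libraries were all below the WT libraries for 3 of the 54 (5.56%) and all above for 3 (5.56%), against 4.37% and 3.75% of all genes tested.

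The gene that rose was IGFBP7, a secreted binding protein of insulin-like growth factors and a matriptase substrate. It had 333 and 279 counts in WT vehicle, 365 and 297 with SI-2, then 522 and 479 in BR vehicle, and 539 and 569 in BR SI-2. Every BR library was above every WT library, at 28.5 ± 2.06 and 17.7 ± 2.13 CPM (SD, n = 4). Its log2 fold change was 0.69 (SE 0.11), with adjusted p = 0.0322 in edgeR's test. The call was kept when WT SI-2 replicate 1 was left out (adjusted p = 0.0215 in edgeR's test) and lost when any other library was. In a fit with a term for each of the 4 conditions, averaged over treatment, its log2 fold change was 0.68 (SE 0.13) with adjusted p = 0.143 in edgeR's test, and without the BR SI-2 library of replicate 2 its log2 fold change was 0.67 with adjusted p = 0.121 in edgeR's test. None of the other 6 tested substrates passed. The most abundant gene of the list, SCNN1B, had 29.3 FPKM and a log2 fold change of -0.20 (SE 0.21). It was listed as a subunit of the epithelial sodium channel, and cleavage of this subunit was not tested. MST1, the ligand of the MET relative RON, had 7.38 FPKM and -0.38 (SE 0.15). The adjusted p of SCNN1B and MST1 was 0.677 and 0.293 in edgeR's test. PDGFD, a growth factor, had a lower CPM in all BR libraries than in any WT library (0.48 ± 0.19 and 1.06 ± 0.34, SD, n = 4), but at -1.12 (SE 0.34) its adjusted p in edgeR's test was 0.204.

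Other proteases and inhibitors did not pass the test. Of 20 other membrane serine proteases, 17 were in the table and 8 were tested, and all had low levels: TMPRSS9 1.95 FPKM, TMPRSS15 (enteropeptidase) 1.42 FPKM and PRSS27 1.17 FPKM. Their log2 fold changes were 0.23 (SE 0.24), 0.56 (SE 0.38) and 0.21 (SE 0.23), with the lines overlapping. Of 11 proteases known to activate HGF, 3 were tested: KLKB1, plasma kallikrein, F12, coagulation factor XII, and F11, coagulation factor XI. F12 had 27 to 51 counts in WT and 15 to 30 in BR, with a log2 fold change of -0.92 (SE 0.30) and adjusted p = 0.220 in edgeR's test. KLKB1 was at -0.0027 (SE 0.33) and F11 at 0.03 (SE 0.26), and HPN, the protease hepsin, and PLAU, urokinase, had at most 2 counts in any library. Of 17 other inhibitors, 15 were in the table and 8 were tested. APP and APLP2, membrane proteins of which some isoforms carry a Kunitz domain, had 80.6 and 47.6 FPKM with log2 fold changes of 0.13 and -0.10, and SERPINE2, protease nexin-1, had 11.8 FPKM and 0.05. These 3 genes had adjusted p of 0.484, 0.705 and 0.916 in edgeR's test. APP was higher in every BR library (290 to 314 CPM) than in any WT library (259 to 284 CPM), and the lines overlapped for APLP2 and SERPINE2.

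Genes that act with MET were expressed, and none passed edgeR's test. Of 31 genes 28 were tested, 14 with a fold change above 0 and 14 below. The adaptors SHC1 (82.3 FPKM) and GRB2 (41.2 FPKM) had log2 fold changes of -0.13 and 0.22. ADAM10, a protease that sheds surface proteins, had 74.1 FPKM and was higher in every BR library, at 0.38 (SE 0.11) and adjusted p = 0.176 in edgeR's test. GAB2, an adaptor, and PTPRJ, a phosphatase, were lower in every BR library, at -0.53 (SE 0.14, adjusted p = 0.148) and -0.45 (SE 0.16, adjusted p = 0.249) in edgeR's test. DESeq2 called GAB2 and ADAM10, 2 of the 28, against 3.01% of all genes. SDC1, syndecan-1, had 382 to 688 counts in WT and 301 to 423 in BR, with -0.53 (SE 0.18) and adjusted p = 0.242 in edgeR's test. Of 16 regulators of epithelial identity 6 were tested, and the highest were ZEB1 and TWIST1, repressors of epithelial genes, at 9.09 and 4.20 FPKM, and KLF5, an activator, at 2.93 FPKM, with log2 fold changes of 0.02, 0.07 and -0.42 and none called.

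**Figure D4:**
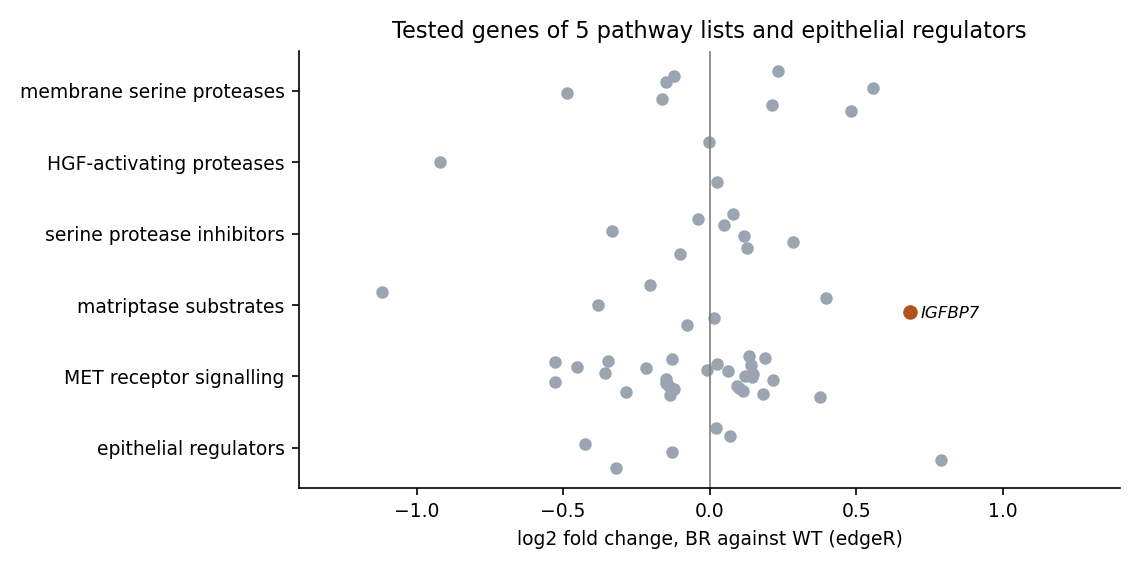
Log2 fold change of BR against WT (horizontal axis) for 60 tested genes, 54 of the 5 lists around matriptase and 6 regulators of epithelial identity. IGFBP7, at 0.69, is the labelled point and the only one of the 60 past an adjusted p of 0.05, and the other points lie between -1.12 and 0.79.

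Of the 87 genes of the 5 lists in the table, 11 (12.6%) had over 3 counts in the BR SI-2 library of replicate 2 and at most 3 in every other library, as had 3 of the 16 regulators of epithelial identity (ELF3, EHF and SNAI2) and 476 of the 18564 genes of the table (2.56%). The 11 were TMPRSS4 (16 counts), PRSS22, TMPRSS2, HABP2, SERPING1 (184 counts), WFDC2, SERPINA1, SERPINA5, EPCAM, SCNN1A (15 counts) and NRP1, and all 14 were chosen after their values were seen.

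ST14 was set beside its neighbours on chromosome 11, the 10 tested genes on each side in the order of the reference gene table. From ST3GAL4 to THYN1 the 20 neighbours had log2 fold changes from -0.48 (OPCML, an adhesion molecule) to 0.46 (ETS1, a transcription factor), with a median of 0.080 against -0.01 over the 738 genes tested on the chromosome. None of the 20 was called by edgeR at an adjusted p under 0.05 (0.362% of all genes were), and 3 had an unadjusted p under 0.05 (14.4% of all genes did): ETS1, NCAPD3, a condensin subunit, and THYN1. Their log2 fold changes were 0.46 (SE 0.12), 0.35 (SE 0.13) and 0.25 (SE 0.10). DESeq2 called 1 of the 20, ETS1 (3.01% of all genes), and limma called 0 (0.414%). The nearest on either side, APLP2 and ZBTB44, had log2 fold changes of -0.10 (SE 0.12) and 0.20 (SE 0.10). FLI1, a relative of ETS1, was at 0.20 (SE 0.15).

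**Figure D5:**
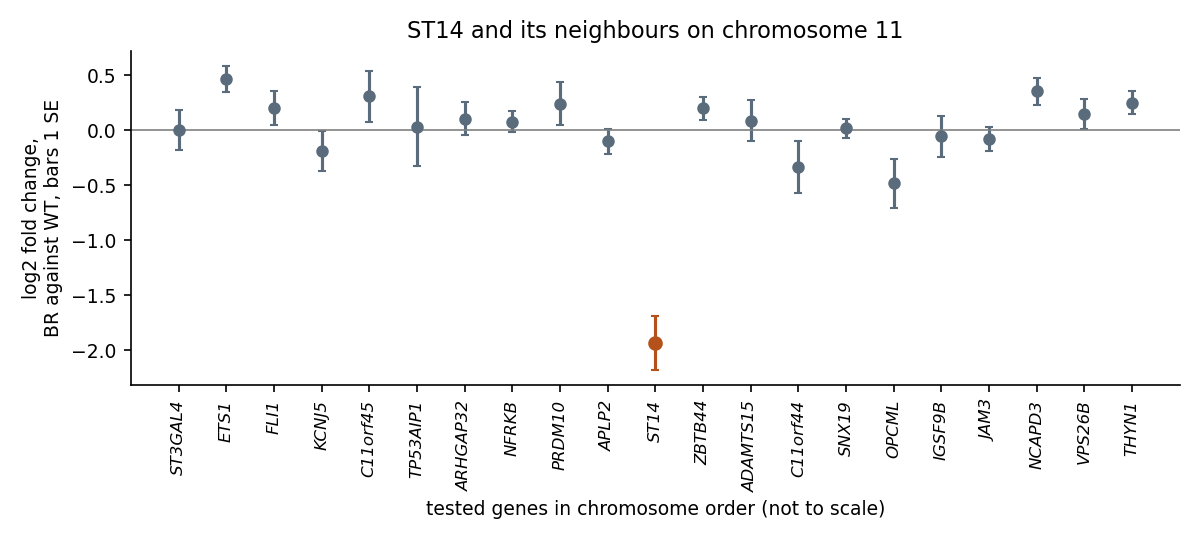
Log2 fold change of BR against WT (vertical axis, bars 1 SE) of ST14 and the 10 tested genes on each side in chromosome order, with equal spacing. The neighbours lie between -0.48 and 0.46, and ST14, which was chosen for this difference, at -1.93.

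The genes whose pattern over the 8 libraries was most like that of ST14 were EEF1G, an elongation factor subunit (Pearson r of log2 CPM 0.993), the ribosomal protein genes RPL29 (0.988), RPL17 (0.986) and RPL7A (0.985), and ATP6AP1, a subunit of the vacuolar proton pump (0.985), among 10411 genes with a mean of at least 5 CPM. The most opposite were PECAM1, an adhesion receptor (-0.984), P4HA2, a collagen prolyl hydroxylase (-0.984), and TCERG1L (-0.983). The points are libraries that fall into the 2 lines, so that a step between the lines enters every correlation, and no p is given. Within the 4 WT libraries r ran from 0.934 to 0.992 for the 5 genes most like ST14 and from -0.988 to -0.884 for the 3 most opposite. Within the 4 BR libraries it ran from 0.221 to 0.917 and from -0.936 to -0.145. The genes were picked by r over the same 8 libraries, so these values within a line are not independent of that choice. The size of the step differed. EEF1G had a log2 fold change of -0.24 (SE 0.07), RPL29 -0.41 (SE 0.09) and RPL7A -0.54 (SE 0.08), while PECAM1 was at 1.29 (SE 0.18) and P4HA2 at 1.45 (SE 0.15). RPL29, RPL17, RPL7A and EEF1G have processed pseudogenes with near-identical sequence, and their counts are uncertain to that extent.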

How the data were processed

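Estimated counts and FPKM per gene and per transcript were deposited by the authors for 8 LP-1 libraries sequenced on the BGISEQ-500. The submitters' processing notes list BWA, Bowtie2, RSEM and hg19, without roles or versions. In the authors' files, 8 columns of condition averages per table and the tables of their own DEGseq fold changes and p-values were not used. The 25 symbols that had become dates were left as deposited, and 18267 of 18564 gene identifiers matched the RefSeq table of GRCh38.p14, used for names and gene order. For 8884 genes the deposited counts were exactly whole, with no tolerance, in every library.

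Counts were rounded, filtered with filterByExpr, scaled by TMM and compared in edgeR 4.0.16 by quasi-likelihood F-tests with Benjamini-Hochberg adjustment over all genes tested, at a threshold of 0.05. BR against WT used 2 groups of 4 libraries (13520 genes), and the SI-2 comparisons 1 fit over 4 conditions (13896 genes). Standard errors were computed from the fold change and its F statistic. DESeq2 1.42.0, limma 3.58.1 on log2(FPKM + 1) and log2(FPKM + 0.1), upper-quartile scaling, library size only, no filter, a filter at a CPM of 1 in 2 or more libraries, a replicate block, a model of the 4 conditions averaged over treatment (condition terms) and leaving out libraries in turn were alternatives. The steps were tested on simulated data. The work used R 4.3.3, Python 3.11.15, pandas 2.3.3, numpy 2.4.6 and matplotlib 3.10.9.

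The members and lists were chosen with earlier results of these data known. Named genes were the 7 members, the called genes and the 3 highest by FPKM of each list, the 20 neighbours, and the 5 most and 3 least correlated genes. Others were named after their values were seen. Libraries of a condition differed by a chi-square of 26.8 to 40.1 per gene, so none was a duplicate.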

Additional observations from a re-analysis of the deposited data

Results flagged for a closer look

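Among 24 groups of 4 libraries (the members' counts and the marker sums in each line), 7 held a library whose gap to the nearest other exceeded Dixon's 95% critical value of 0.829. Chance gives about 1 in 20 for continuous values, but a group of 0, 0, 0 and any other count always exceeds it, as for all 4 groups of SPINT1 and SPINT2. Within BR, SPINT1 had 55 counts and SPINT2 22 counts in the SI-2 library of replicate 2 and 0 in the others, and the summed counts of epithelial markers (404) and stromal markers (2596) stood apart in the same library. The part of these marker genes in the inhibitor counts was not tested. Within WT, SPINT1 had 1 count in vehicle replicate 1 and SPINT2 had 1 count in SI-2 replicate 2, with 0 in the others. The plasma cell markers summed to 159300 counts in BR vehicle replicate 1 and to between 141635 and 143132 in the other BR libraries.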

How the results depend on the processing

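The ST14 log2 fold change of BR against WT, whose direction the choice of the gene fixes, was -1.19 with limma on log2(FPKM + 1), a scale that shrinks low genes, and -2.10 to -1.76 when 1 library was left out. The 49 genes called between the lines became 399 with DESeq2, 18 with condition terms and 21 (without WT SI-2 replicate 2) to 125 (without WT SI-2 replicate 1) when 1 library was left out, with 86 without BR vehicle replicate 1, 27 without WT vehicle replicate 2, 24 without BR vehicle replicate 2, 29 without BR SI-2 replicate 1 and 32 without BR SI-2 replicate 2. The cause was not tested. With the replicate block 155 were called. Deviations of same-numbered libraries correlated at 0.436 between the WT conditions and at 0.373 between the BR conditions. Between the lines the correlations ran from -0.12 to 0.196. They were not above 0.1 in every pair, so the numbers were not taken to pair the libraries. The main SI-2 tests thus leave out what same-numbered libraries of a line share, whose source was not tested. HGF had a lower CPM with SI-2 than in the vehicle library of the same number throughout. With the replicate block, SI-2 gave HGF -0.24 (SE 0.22) in BR and -0.21 (SE 0.22) in WT, and neither was called. The 1 list gene called (IGFBP7) became 3 with DESeq2, 0 with condition terms, and 0 to 1 when a library was left out. With SI-2 in BR, 0 calls became 1 with DESeq2 and 0 to 67 when a library was left out. The 67 came without BR SI-2 replicate 1, all were higher, and 32 of them were among the 204 genes of BR SI-2 replicate 2, which then stood alone for its condition and was assumed to vary like the others. Leaving out BR vehicle replicate 2 gave 1. For SI-2 in WT and for the difference of effects, DESeq2 gave 1 call each.

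The SI-2 fold changes were small against their errors and turned direction for 7 of 9 results (3 genes, 3 comparisons) when single libraries were left out. ST14 and HGF in BR did not, with log2 values from -0.51 to -0.0055 and from -0.47 to -0.03. The others ran from -0.33 to 0.47 for MET in BR, from -0.67 to 0.41 for ST14, -0.78 to 0.40 for HGF and -0.59 to 0.31 for MET in WT, and from -0.69 to 0.40 for ST14, -0.67 to 0.52 for HGF and -0.19 to 0.72 for MET in the difference of effects. With 2 libraries a condition and at most 103 MET counts, depth and replication limit what these comparisons can show.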
